A study of Homo sapiens with 2 samples.

Results

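The genes described here are those whose symbols begin with TIMM, TOMM or SLC25A and a number in a table of RNA-seq levels from LNCaP cells, an androgen-sensitive human prostate cancer line established from a lymph node metastasis. The rule found 63 of the 12075 protein-coding genes listed: 25 TIMM and TOMM genes, called translocases below, and 38 SLC25 carriers. In the first library, oe, the LNCaP cells had received the CM of M2 macrophages labelled oe-YY1, and in the other, nc, that of M2 macrophages labelled nc-YY1. The labels do not spell out oe, nc or CM, and both treatment labels also carry the word cocultured. Both libraries share a genotype label of WT and a time label of day 0. Each group held 1 library, which leaves every difference without a replicate check and without a p-value. Levels are in FPKM, which scales fragments by transcript length and library size, and the number of reads behind them is unknown. The log2 ratio sets log2(FPKM + 1) in oe against nc by subtraction, so a negative value means lower in oe, and the added 1 shrinks the differences of low genes. Genes are called higher or lower where oe and nc differ by 1.5-fold or more on that scale. Counts cover the 11126 genes that reached 1 FPKM in one library or both. All 63 members reached 1 FPKM in both libraries.

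Most proteins of the mitochondrion are made in the cytosol and imported. They enter through the TOM complex of the outer membrane. From there the TIM23 complex passes proteins with a presequence into or across the inner membrane, while small TIM chaperones escort hydrophobic proteins through the intermembrane space to the TIM22 complex, which inserts them. The SLC25 carriers are themselves substrates of that second route. They form the largest family of inner membrane transporters and move nucleotides, phosphate, carboxylates, amino acids, cofactors and metals between the cytosol and the matrix. In prostate epithelium mitochondrial citrate handling is of particular interest, since normal luminal cells secrete citrate and cancer cells largely lose that trait.

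Promoter windows were taken from RefSeq (GRCh38.p14, 250 bases before to 50 bases after each start given for a gene), which held a window for 55 of the 63 members. The windows printed here belong to some of the members past 1.5-fold: translocases that were lower (TOMM22, TIMM10, TIMM13 and TIMM50), a carrier that was lower (SLC25A11) and one that was higher (SLC25A25). Every window printed holds a match to a motif named below. The windows of other members past 1.5-fold, such as SLC25A1, SLC25A29, TIMM22 and TIMM8A, held none, so those printed are not typical of such members. Each runs 5′ to 3′ on the strand of its gene. Capitals mark the matched letters of 4 motifs, searched on both strands: CCGGAAG, the core of ETS factors; GCGCNTGCG, a form of the site of NRF1, a regulator of nuclear genes for mitochondrial proteins; TGACGTCA, the palindrome of CREB factors; and AAGATGGCG, a form of the YY1 site. The windows are TOMM22 at chr22:38681707-38682006 (plus strand), TIMM10 at chr11:57530705-57531004 (minus strand), TIMM13 at chr19:2427537-2427836 (minus strand), TIMM50 at chr19:39480588-39480887 (plus strand), SLC25A11 at chr17:4939997-4940296 (minus strand) and SLC25A25 at chr9:128098257-128098556 (plus strand), the last being 1 of the 3 windows RefSeq gives for that gene. It is the one furthest downstream. Of the SLC25A25 windows not printed, the one from 128067982 holds an ETS core and the one from 128091205 holds no match. Which start was used in these cells was not tested.
TOMM22: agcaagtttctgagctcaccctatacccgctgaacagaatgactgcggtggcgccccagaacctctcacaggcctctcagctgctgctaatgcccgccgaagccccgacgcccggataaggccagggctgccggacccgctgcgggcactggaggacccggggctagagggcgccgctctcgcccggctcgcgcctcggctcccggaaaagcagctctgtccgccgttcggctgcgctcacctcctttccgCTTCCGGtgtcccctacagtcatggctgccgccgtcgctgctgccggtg
TIMM10: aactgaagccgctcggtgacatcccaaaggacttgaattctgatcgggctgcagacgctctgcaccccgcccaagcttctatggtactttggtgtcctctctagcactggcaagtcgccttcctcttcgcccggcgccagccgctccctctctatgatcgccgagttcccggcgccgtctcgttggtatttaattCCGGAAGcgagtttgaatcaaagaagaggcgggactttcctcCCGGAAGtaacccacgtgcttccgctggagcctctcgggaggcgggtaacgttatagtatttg
TIMM13: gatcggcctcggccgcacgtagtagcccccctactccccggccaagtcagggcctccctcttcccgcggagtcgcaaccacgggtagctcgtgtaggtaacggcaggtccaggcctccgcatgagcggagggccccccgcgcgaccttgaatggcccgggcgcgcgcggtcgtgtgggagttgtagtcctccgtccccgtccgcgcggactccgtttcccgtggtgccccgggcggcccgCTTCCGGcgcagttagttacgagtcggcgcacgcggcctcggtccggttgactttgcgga
TIMM50: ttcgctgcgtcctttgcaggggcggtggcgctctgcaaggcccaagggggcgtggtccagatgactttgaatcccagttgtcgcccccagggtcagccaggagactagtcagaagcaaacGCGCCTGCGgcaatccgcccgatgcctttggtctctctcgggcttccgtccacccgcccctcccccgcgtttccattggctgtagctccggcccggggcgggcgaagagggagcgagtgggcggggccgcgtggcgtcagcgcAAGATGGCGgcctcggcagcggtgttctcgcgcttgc
SLC25A11: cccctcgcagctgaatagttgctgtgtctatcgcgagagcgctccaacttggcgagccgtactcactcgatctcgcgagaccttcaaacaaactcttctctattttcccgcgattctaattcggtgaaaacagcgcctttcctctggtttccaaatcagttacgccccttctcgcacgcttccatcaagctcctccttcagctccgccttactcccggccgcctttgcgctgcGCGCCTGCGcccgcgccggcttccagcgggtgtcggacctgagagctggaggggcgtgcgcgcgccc
SLC25A25: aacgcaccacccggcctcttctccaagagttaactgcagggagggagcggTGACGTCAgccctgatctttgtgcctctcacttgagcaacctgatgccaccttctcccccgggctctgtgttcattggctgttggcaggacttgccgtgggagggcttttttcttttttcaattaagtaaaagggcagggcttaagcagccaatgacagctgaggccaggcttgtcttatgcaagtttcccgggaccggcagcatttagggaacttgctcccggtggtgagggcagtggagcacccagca

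The ETS core stood in a window of 12 of 23 translocases (52.2%) and 10 of 32 carriers (31.2%), against 24.3% of the 9093 counted genes that had a window. The NRF1-like motif stood in 7 of 23 translocases (30.4%), among them TOMM40 and TOMM7, and in 4 of 32 carriers (12.5%), against 18.4% of those genes. The CREB palindrome was matched in 3 of 32 carriers (9.4%), SLC25A25, SLC25A33 and SLC25A36, and in 0 of 23 translocases, against 4.10% of all genes with a window. The YY1-like letters were matched in 2 of 23 translocases (8.7%), TIMM50 and TOMM40L, and in 1 of 32 carriers (3.1%), SLC25A3. This was near the 5.08% of all genes with a window. Matches of different motifs do not overlap in the windows printed. Members with the ETS core had a median log2 ratio of -0.26 (22 genes, 9 of them lower), and those without it a median of -0.53 (33 genes, 14 lower). A match describes letters in a window and not the binding of a factor, and no test was made of these shares.

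Markers of the cells were read in the same libraries. All 6 LNCaP markers were listed, with a summed level of 304 FPKM in oe and 902 FPKM in nc, and 4 were at least 2-fold lower, among them KLK3 at 77.6 FPKM in oe against 358 FPKM in nc. Of 13 macrophage markers 5 were listed, with a summed level of 958 FPKM in oe and 1.73 FPKM in nc, nearly all of it from HLA-DRA (700.0 FPKM in oe and 0.962 FPKM in nc) and CD74 (251 FPKM in oe and 0.0923 FPKM in nc). ITGAM was at 2.34 FPKM in oe against 0.00787 FPKM in nc, CD68 at 4.18 FPKM in oe against 0.632 FPKM in nc, and LYZ at 0.603 FPKM in oe and 0.0382 FPKM in nc. PTPRC, CD14, CD163, MRC1, CSF1R, TYROBP, FCER1G and AIF1 were looked up and were not among the genes listed, so no level was read for them. Every gene that was listed reached at least 0.500 FPKM in its higher library. Whether these 8 unlisted markers lay under that level in both libraries was not tested. The part of these markers in the levels of the import and carrier genes was not tested.

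Both classes were shifted to lower values in the oe library. Of 25 translocases 14 were at least 1.5-fold lower, 0 were higher and 11 lay within 1.5-fold, while of 38 carriers 14 were lower, 2 were higher and 22 lay within 1.5-fold. Of all 11126 genes counted, 15.2% were at least 1.5-fold lower and 15.3% higher, against 56.0% and 0.0% of the translocases and 36.8% and 5.26% of the carriers. The median log2 ratio was -0.60 for translocases and -0.32 for carriers, against -0.01 for all genes counted. Only 2 translocases, TOMM70 and TIMMDC1, stood above 0, and 10 carriers did, against 5477 of the 11126 genes counted. Summed over the class, translocases held 662 FPKM in oe against 1011 FPKM in nc, and carriers 734 FPKM in oe and 1086 FPKM in nc. In bulk RNA, fewer cells with a transcript and less of it per cell cannot be told apart. At the stricter size of 2-fold, 3 of 25 translocases and 2 of 38 carriers were lower and 1 carrier was higher. Of all genes, 5.83% were lower and 6.46% higher at that size, so the share of lower carriers was near that of all genes. The number of lower translocases fell to 6 with the oe library rescaled to the same sum of FPKM as the nc library, where 11.9% of all genes were lower, and to 9 with the libraries at the same 75th percentile (13.8%). Under these 2 scalings carriers were split into 4 higher and 10 lower, and into 4 higher and 11 lower, with 19.1% and 16.5% of all genes higher.

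**Figure D1:**
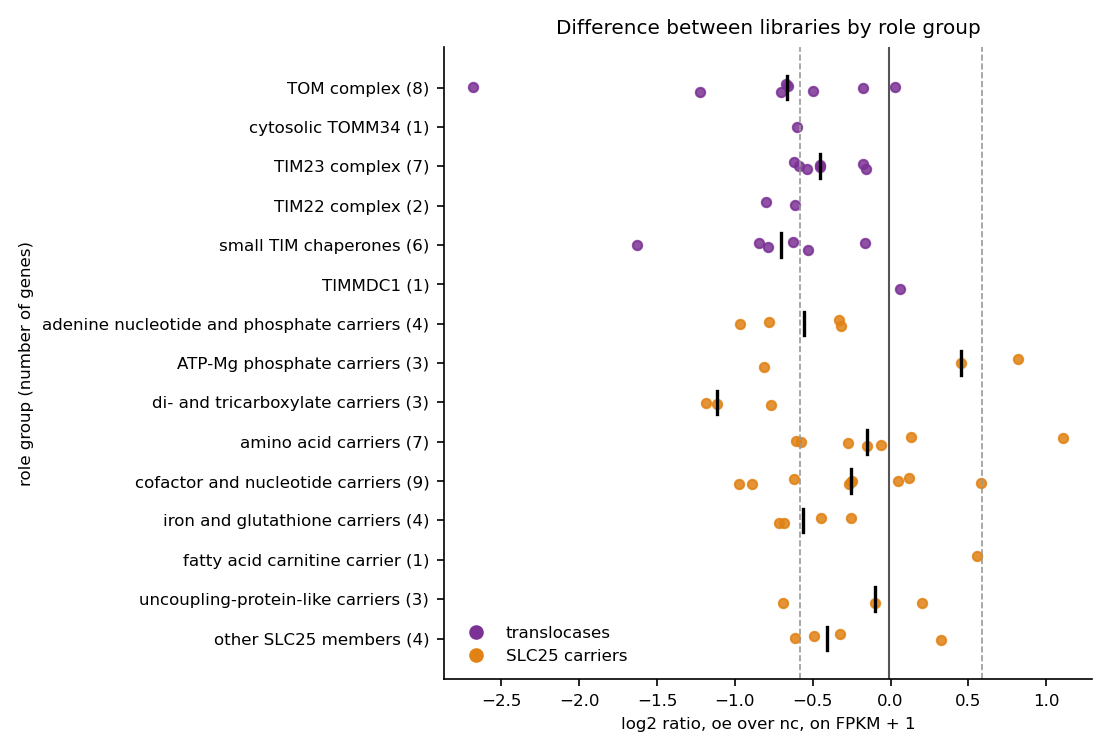
Log2 ratio of each member (oe over nc, FPKM + 1) by role group, with 1 point per gene, the number of genes in parentheses, a short black bar at the median of groups of at least 3 genes, dashed lines at 1.5-fold and a solid line at the median of all genes counted (-0.01). Most translocases lie left of that line, the di- and tricarboxylate carriers lie left of the lower dashed line, and carriers right of the upper dashed line are SLC25A25 and SLC25A29.

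The TOM complex is the entry gate of the outer membrane. TOMM40 forms its channel and measured 9.49 FPKM in oe against 15.7 FPKM in nc, a log2 ratio of -0.67. TOMM22, the central receptor that holds the complex together and whose printed window has an ETS core at the start site, reached 56.3 FPKM in oe and 92.3 FPKM in nc (-0.70). Both were thus past 1.5-fold, in contrast to the presequence receptor TOMM20, at 66.9 FPKM in oe against 75.8 FPKM in nc (-0.18). TOMM70, the receptor for carrier precursors, was level, at 27.7 FPKM in oe and 27.1 FPKM in nc (0.03). The small subunits TOMM5, TOMM6 and TOMM7 stabilise the channel. TOMM5 was at 9.77 FPKM in oe against 16.0 FPKM in nc (-0.66), while TOMM7, the most abundant TOM gene, had 71.3 FPKM in oe and 101 FPKM in nc (-0.50) and remained within 1.5-fold. TOMM40L, a paralogue of the channel protein, measured 2.06 FPKM in oe against 6.15 FPKM in nc (-1.22), so the paralogue at the lower level showed the wider gap. TOMM34, a cytosolic partner of import rather than a subunit, reached 27.9 FPKM in oe and 42.8 FPKM in nc (-0.60).

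The lowest log2 ratio among the members was that of TOMM6 (ENSG00000214736.7_3, chromosome 6, 41755400 to 41757636 as deposited, build inferred as GRCh37), at 2.76 FPKM in oe against 23.1 FPKM in nc (-2.68). TOMM6 lies wholly within another listed gene on the same strand, AL365205.1 (41748087 to 41757879), which was at 20.03 FPKM in oe against 26.1 FPKM in nc. Reads in the shared span may be given to either gene, so the gap of TOMM6 is uncertain. Same-strand overlaps were also found for TIMM13 with LMNB2 (17.9 FPKM in oe and 31.9 FPKM in nc), for TOMM5 with AL513165.2 (2.43 FPKM in oe against 0.883 FPKM in nc) and for SLC25A37 with FP15737. FP15737 lies within the span of SLC25A37 and was at 20.1 FPKM in oe against 31.8 FPKM in nc. SLC25A37 itself was at 4.19 FPKM in oe against 6.06 FPKM in nc, so its value is uncertain too. In all, 17 members, TOMM6 among them, overlap a listed gene on the opposite strand, and whether reads were counted by strand is not stated. Without the 4 members with a same-strand overlap, 11 of 22 translocases and 14 of 37 carriers were lower, against 15.2% of all genes counted.

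**Figure D2:**
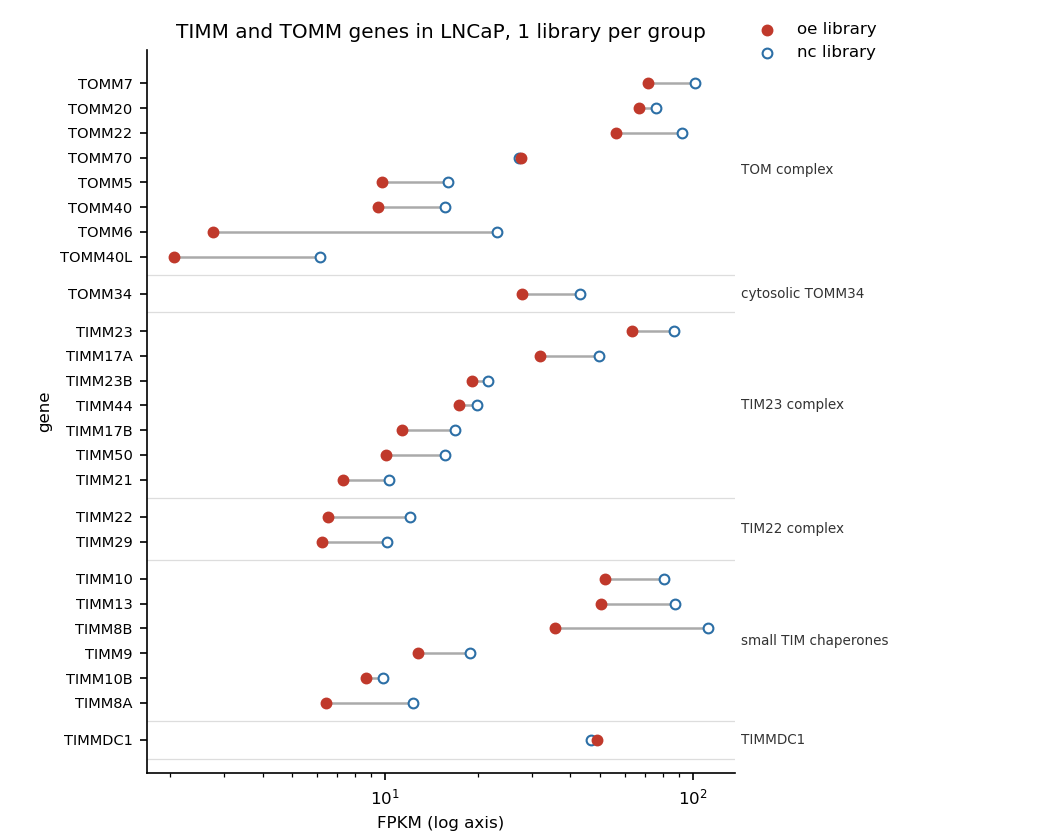
FPKM (log axis) of the 25 TIMM and TOMM genes in the oe library (filled red) and the nc library (open blue), grouped by role, 1 library per group. The oe point lies left of the nc point for all but TOMM70 and TIMMDC1, and the widest gaps are those of TOMM6, TIMM8B and TOMM40L.

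The small TIM chaperones act in the intermembrane space as hexamers of TIMM9 with TIMM10 and of TIMM8A with TIMM13. They were lower in 4 of 6 genes (66.7%), against 15.2% of all genes counted. TIMM8B (ENSG00000150779.11_2, chromosome 11, 111955524 to 111957522 as deposited), a paralogue of TIMM8A, was the most abundant translocase in the nc library, at 35.6 FPKM in oe and 112 FPKM in nc (-1.63). TIMM8A, the gene altered in deafness-dystonia syndrome, was at 6.42 FPKM in oe and 12.3 FPKM in nc (-0.85), and TIMM13 at 50.4 FPKM in oe against 87.6 FPKM in nc (-0.78). On the opposite strand TIMM8B overlaps C11orf57 (111944810 to 111955874), which measured 6.73 FPKM in oe against 6.03 FPKM in nc. TIMM8B has a shorter overlap with SDHD on that strand, and SDHD measured 39.7 FPKM in oe against 44.2 FPKM in nc. TIMM10 was at 51.7 FPKM in oe and 80.5 FPKM in nc (-0.63), and its partner TIMM9 at 12.8 FPKM in oe and 18.9 FPKM in nc (-0.53), which fell short of 1.5-fold. TIMM10B, which attaches the chaperones to the TIM22 complex, was closer to level, at 8.68 FPKM in oe against 9.84 FPKM in nc (-0.16). The TIM22 complex that receives the carriers is represented by its channel protein TIMM22, at 6.51 FPKM in oe and 12.1 FPKM in nc (-0.80), and its subunit TIMM29, at 6.26 FPKM in oe against 10.1 FPKM in nc (-0.61). Both were thus among the lower genes.

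Of the 7 genes of the TIM23 complex, all had negative log2 ratios and 2 were past 1.5-fold (28.6%). Over all genes counted, 15.2% were lower by that rule. TIMM17A, one of the forms of the channel-lining subunit, was at 31.8 FPKM in oe against 49.5 FPKM in nc (-0.62), and its X-linked paralogue TIMM17B at 11.3 FPKM in oe and 16.9 FPKM in nc (-0.54). TIMM50, the receptor that takes presequences from TOM and the gene whose printed window holds both NRF1-like and YY1-like letters, was just past the size rule, at 10.1 FPKM in oe against 15.6 FPKM in nc (-0.59). TIMM23, the core subunit of the complex, was at 63.4 FPKM in oe and 87.0 FPKM in nc (-0.45), and the near-identical TIMM23B at 19.2 FPKM in oe and 21.6 FPKM in nc (-0.16). Reads of these copies may be divided between them, so neither value is certain. TIMM21, which links the complex to TOM and to respiratory chain assembly, had a log2 ratio of -0.45, and TIMM44, which tethers the import motor, one of -0.18. TIMMDC1, an assembly factor of complex I that shares the name and not the import function, had the highest log2 ratio of the TIMM and TOMM genes, at 48.6 FPKM in oe against 46.5 FPKM in nc (0.06).

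Import also needs partners outside the symbol rule. Of 27 such symbols 26 were listed, of which 5 were lower (19.2%), 2 higher (7.69%) and 19 within 1.5-fold, with a median log2 ratio of -0.41. The share of lower genes was near the 15.2% of all genes counted and the 19.9% of those with a mean of at least 10 FPKM over both libraries, and 15.3% of all genes counted were higher. CHCHD4, the oxidoreductase that traps small TIM proteins in the intermembrane space by forming disulfides, was the only one at least 2-fold lower, at 13.4 FPKM in oe and 28.3 FPKM in nc (-1.03). HSPE1, the matrix co-chaperonin, was lower too, at 67.5 FPKM in oe against 114 FPKM in nc (-0.75), and overlaps HSPE1-MOB4 on the same strand. Some paralogues stood on opposite sides of the size rule. The nucleotide exchange factor GRPEL1 was lower, at 10.4 FPKM in oe and 17.5 FPKM in nc (-0.70), while GRPEL2 was higher, at 5.78 FPKM in oe against 3.02 FPKM in nc (0.75). The inner membrane peptidase subunit IMMP1L was lower, at 4.58 FPKM in oe and 8.58 FPKM in nc (-0.78), while IMMP2L was higher, at 6.82 FPKM in oe against 3.49 FPKM in nc (0.80). HSPD1, the chaperonin and the most abundant of the list, stood within 1.5-fold at 199.7 FPKM in oe and 291 FPKM in nc.

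The SLC25 carriers lay on both sides of 0, with log2 ratios from -1.19 to 1.10, against a range of -2.68 to 0.06 in the translocases. The di- and tricarboxylate carriers were lower in 3 of 3 genes, against 15.2% of all genes counted. SLC25A1, the citrate carrier that exports citrate for lipid synthesis (ENSG00000100075.9_2, chromosome 22, 19163088 to 19166343 as deposited), measured 32.8 FPKM in oe against 72.2 FPKM in nc (-1.11). SLC25A11, the oxoglutarate and malate carrier of the malate-aspartate shuttle (ENSG00000108528.13_2, chromosome 17, 4840425 to 4843546), reached 20.1 FPKM in oe and 47.1 FPKM in nc (-1.19). These 2 carriers were the only ones at least 2-fold lower. SLC25A10, the dicarboxylate carrier, was at 23.0 FPKM in oe against 39.9 FPKM in nc (-0.77). SLC25A11 overlaps RNF167 on the opposite strand, which had 27.5 FPKM in oe and 41.8 FPKM in nc. The other exchange of the malate-aspartate shuttle is run by the aspartate and glutamate carriers, which were not past the size rule: SLC25A12 was at 3.03 FPKM in oe against 3.48 FPKM in nc (-0.15), and SLC25A13 at 12.2 FPKM in oe against 11.1 FPKM in nc (0.13).

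The adenine nucleotide carriers, which exchange ATP of the matrix for ADP of the cytosol, include the 2 most abundant members, SLC25A5 and SLC25A6. SLC25A5, the form of dividing cells, was at 193 FPKM in oe and 333 FPKM in nc (-0.78), and SLC25A6, a widely expressed form, at 187 FPKM in oe and 236 FPKM in nc (-0.33). SLC25A4, the form of heart and muscle, was at 10.04 FPKM in oe against 20.6 FPKM in nc (-0.97). SLC25A5 and SLC25A4 were past 1.5-fold and SLC25A6 was not, so that SLC25A5 held 49.5% of the FPKM of the 3 genes in the oe library and 56.5% in the nc library, and SLC25A6 held 47.9% in the oe library and 40.0% in the nc library. These genes have close copies in the genome, and reads may be shared with them. The phosphate carrier SLC25A3, which brings in the phosphate for ATP synthesis, had 37.7 FPKM in oe and 47.3 FPKM in nc (-0.32). The calcium-regulated ATP-Mg and phosphate carriers, which set the size of the matrix nucleotide pool, lay on both sides of 0. SLC25A23 was lower, at 11.1 FPKM in oe against 20.3 FPKM in nc (-0.82), and SLC25A25 was higher, at 7.28 FPKM in oe and 3.70 FPKM in nc (0.82). SLC25A25 overlaps NAIF1 on the opposite strand, which measured 4.99 FPKM in oe against 4.83 FPKM in nc. SLC25A24 reached 2.41 FPKM in oe and 1.49 FPKM in nc (0.45), within 1.5-fold.

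**Figure D3:**
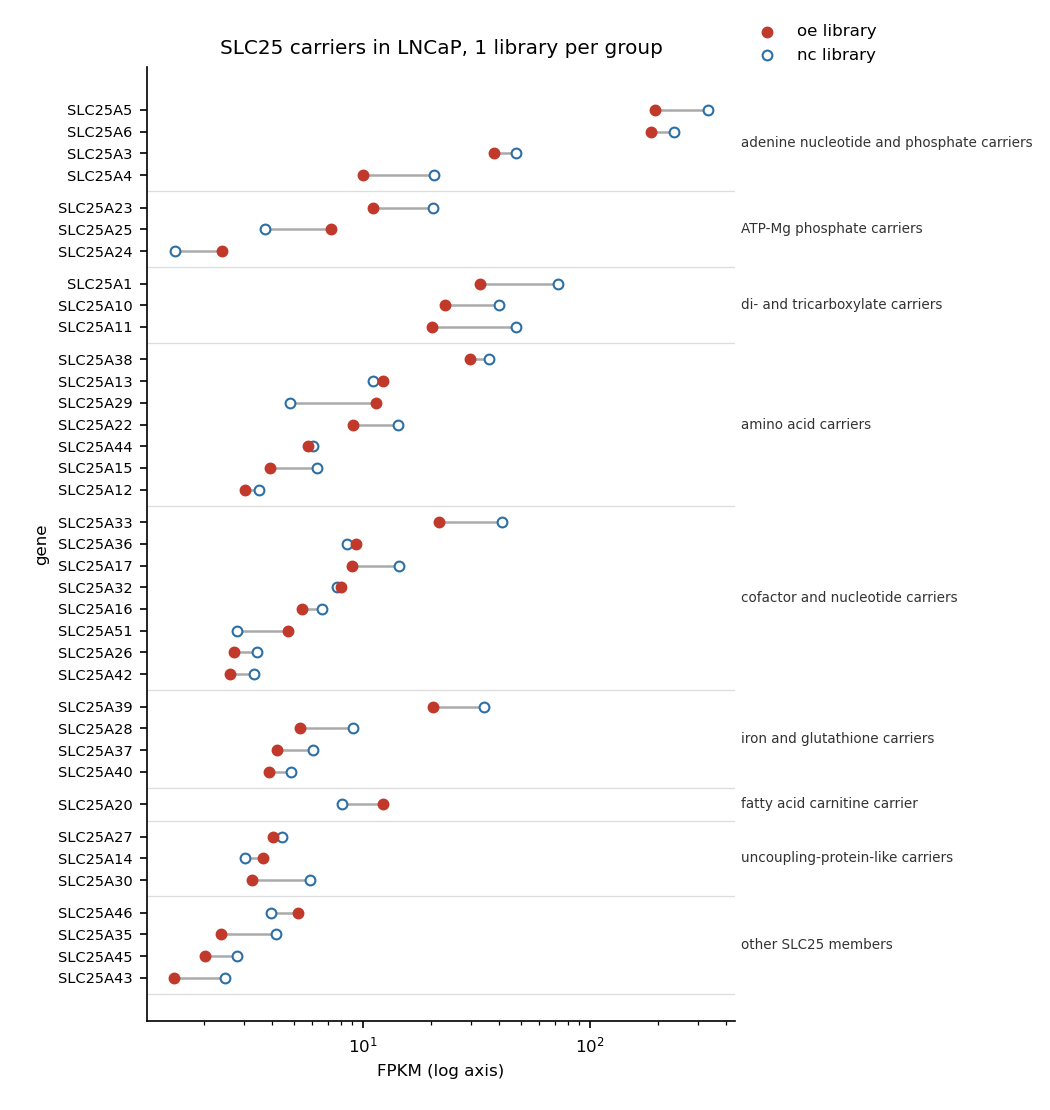
FPKM (log axis) of 37 of the 38 SLC25 carriers in the oe library (filled red) and the nc library (open blue), grouped by substrate, 1 library per group. SLC25A5 and SLC25A6 stand far above the others, and the oe point lies right of the nc point in 10 carriers, with the widest gap of that kind in SLC25A29.

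Among the amino acid carriers, SLC25A29, a carrier of arginine, lysine and other basic amino acids (ENSG00000197119.12_3, chromosome 14, 100757448 to 100772884 as deposited), was the only member at least 2-fold higher, at 11.5 FPKM in oe against 4.80 FPKM in nc (1.10). The ornithine carrier of the urea cycle, SLC25A15, was at 3.89 FPKM in oe against 6.28 FPKM in nc (-0.58), just short of the size rule in the other direction. SLC25A22, a glutamate carrier, was lower, at 9.07 FPKM in oe and 14.3 FPKM in nc (-0.61). SLC25A38, the glycine carrier needed for haem synthesis, and SLC25A44, a carrier of branched-chain amino acids, stood at log2 ratios of -0.27 and -0.06.

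Of 9 carriers of cofactors and nucleotides, 3 were lower (33.3%), against 15.2% of all genes counted. SLC25A33, a pyrimidine nucleotide carrier, had 21.8 FPKM in oe and 41.2 FPKM in nc (-0.89), whereas SLC25A36, also a pyrimidine nucleotide carrier, measured 9.31 FPKM in oe against 8.48 FPKM in nc (0.12). SLC25A17, a peroxisomal carrier of coenzyme A and related cofactors, was at 8.99 FPKM in oe against 14.4 FPKM in nc (-0.62). SLC25A51, the NAD carrier, had the highest log2 ratio of the group and lay just under the size rule, at 4.68 FPKM in oe against 2.79 FPKM in nc (0.58). SLC25A16, SLC25A26, SLC25A32 and SLC25A42 had log2 ratios from -0.27 to 0.05.

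All 4 carriers of iron and glutathione had negative log2 ratios. SLC25A39, a glutathione importer, was lower, at 20.4 FPKM in oe and 34.2 FPKM in nc (-0.72), and its paralogue SLC25A40 had 3.86 FPKM in oe and 4.81 FPKM in nc (-0.26). The iron importer SLC25A28 (mitoferrin-2) was lower, at 5.28 FPKM in oe against 9.08 FPKM in nc (-0.68). SLC25A37 (mitoferrin-1) had a log2 ratio of -0.44, which is uncertain given its same-strand overlap with FP15737. SLC25A20, which brings acylcarnitines in for fatty acid oxidation, leaned the other way without passing the size rule, at 12.3 FPKM in oe and 8.08 FPKM in nc (0.55). Of the carriers related to uncoupling proteins, SLC25A30 was lower, at 3.24 FPKM in oe against 5.83 FPKM in nc (-0.69), while SLC25A14 and SLC25A27 stood at 0.20 and -0.10 on the log2 scale. Of the remaining members, SLC25A35 was lower, at 2.37 FPKM in oe and 4.15 FPKM in nc (-0.61). RANGRF lies within the span of SLC25A35 on the opposite strand and measured 3.22 FPKM in oe against 5.81 FPKM in nc. SLC25A46, an outer membrane protein of mitochondrial dynamics, had a log2 ratio of 0.32, SLC25A43 one of -0.49 and SLC25A45 one of -0.32.

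The gap between the classes differed with level. Translocases had the higher levels, with a median of 17.4 FPKM in oe against 21.6 FPKM in nc, against 6.52 FPKM in oe and 6.46 FPKM in nc for carriers. Among members with a mean of at least 10 FPKM over both libraries, 10 of 19 translocases and 10 of 15 carriers were lower, with medians of -0.59 and -0.72, against 19.9% lower, 12.1% higher and a median of -0.18 for all genes of that level; 0 members of that level were higher. Among members under 10 FPKM, 4 of 6 translocases and 4 of 23 carriers were lower and 2 of these carriers were higher, with medians of -0.71 and -0.25, against 12.6% lower, 17.0% higher and a median of 0.06 for all such genes. The median of translocases minus that of carriers was thus -0.28 over all members and 0.13 over those of at least 10 FPKM, so its sign turned with level. Both higher carriers, SLC25A25 and SLC25A29, lay between 5 and 10 FPKM on average.

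**Figure D4:**
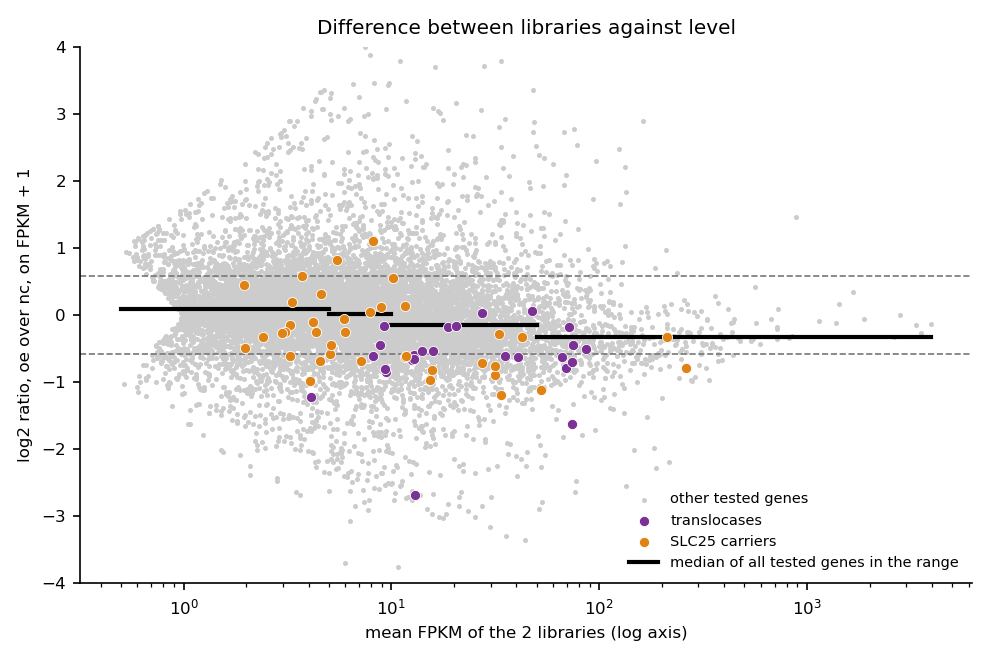
Log2 ratio (oe over nc, FPKM + 1) against the mean FPKM of both libraries (log axis) for all 11126 genes counted (grey, with 29 genes outside the plotted range), translocases (purple) and carriers (orange). Black bars give the median of all genes below 5, from 5 to 10, from 10 to 50 and above 50 FPKM, which goes down with level (0.10, 0.02, -0.14 and -0.32), and dashed lines mark 1.5-fold.

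Transcript length also moved with the ratio over all genes. By the median length of protein-coding transcripts in GENCODE 29, found for all 63 members and 99.0% of the genes counted, the median log2 ratio of all genes was -0.14 under 1000 bases and 0.15 from 2500 bases on. From 1000 to 2500 bases all genes had a median of -0.07, translocases -0.62 and carriers -0.32. Under 1000 bases the median was -0.56 for 10 translocases and -0.70 for 8 carriers, and from 2500 bases on -0.45 for 5 translocases and -0.25 for 13 carriers. Both classes thus stood below all genes in each of these ranges, and the part of length in the difference between libraries was not tested.

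Other nuclear genes of the mitochondrion were set beside the members. Of 38 complex I subunits counted (symbols NDUFA, B, C, S and V with a number), 19 were lower and 0 higher, with a median log2 ratio of -0.59, and of 78 mitochondrial ribosomal proteins 34 were lower and 0 higher, with a median of -0.54. Over all genes counted, 15.2% were lower and 15.3% higher, with a median of -0.01. With 1 library per group no test of these differences was possible.

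**Figure D5:**
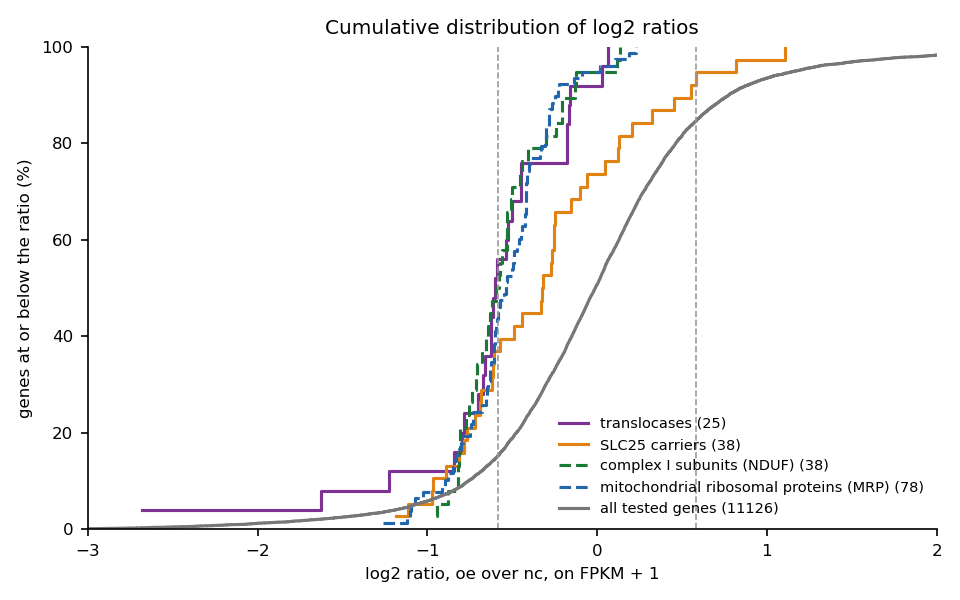
Percent of genes at or below each log2 ratio (oe over nc, FPKM + 1) for translocases, SLC25 carriers, complex I subunits, mitochondrial ribosomal proteins and all genes counted, with the number of genes in parentheses and dashed lines at 1.5-fold. The medians of translocases, complex I and ribosomal proteins lie close together (-0.60, -0.59 and -0.54), while carriers share the lower quartile of translocases (-0.69 for carriers and -0.70 for translocases) and part from them at the median (-0.32).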

How the data were processed

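RNA-seq levels of 2 LNCaP libraries, 1 per group, were used; groups were taken from the sample titles. The authors deposited FPKM per gene, per the file headers, and StringTie 2.1.0 is the tool named in the submitters' processing notes. No source used here names an aligner. The labels' protocols name kits for a stranded preparation, for removal of ribosomal RNA and for poly(A) RNA, and do not state counting by strand. The treatment protocol in the labels describes fat cell differentiation, which no sample label mentions, and was not used. The processing notes name mm10, but identifiers and coordinates are human, and 11946 of 12075 identifiers carry the suffix of annotation mapped to GRCh37, so that build is inferred. The authors' deposited tables of changed genes give a log2 fold change and a linear fold (ratio) of oe over nc on FPKM + 1, per the file headers, and their values for the 30 members past 1.5-fold matched those computed here.

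Log2 ratios used a pseudocount of 1. Genes with at least 1 FPKM in the higher library were counted, and 1.5-fold was the size rule, with 2-fold beside it. With 1 library per group there is no test across samples, and since FPKM holds no counts, the depth is unknown and no interval is given. Alternatives were another pseudocount, other filters, 3 scalings and a 2-fold rule, and, chosen after seeing the data, a level of 10 FPKM and the removal of members. Lists and members were chosen with earlier results of these data known. Any member could be named, with values for all past 1.5-fold and the most abundant of each role group, and from other lists at most 6 past 1.5-fold and the most abundant. One carrier and one marker are counted but not reported by name here. Promoter windows are from RefSeq (GRCh38.p14); those printed and the motifs were chosen after the values were seen. The counting and median steps were tested on simulated data. Python 3.11.15, pandas 2.3.3 and numpy 2.4.6 were used.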

Additional observations from a re-analysis of the deposited data

How the results depend on the processing

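No paired analysis was possible because each group had 1 library, and no value could be given an interval. The number of lower translocases (14) moved to 6 with equal sums of FPKM, 9 at equal 75th percentiles and 3 at the 2-fold rule, and the number of lower carriers (14) moved to 2 at the 2-fold rule. Of all genes, 11.9%, 13.8% and 5.83% were lower under those settings in turn. The number of higher carriers (2) was 5 with a pseudocount of 0.1, 4 under each of those scalings, 1 at the 2-fold rule and 0 over members with a mean of at least 10 FPKM. Of all genes, 19.1% and 16.5% were higher under those scalings, 6.46% at the 2-fold rule and 12.1% at that mean. The share over all genes was not counted at a pseudocount of 0.1, so the count of 5 has nothing to be read against. Equal sums moved the median of all genes by 0.10 on the log2 scale. The median of translocases (-0.60) was -0.63 with a pseudocount of 0.1, -0.48, -0.56 and -0.59 with the libraries at equal sums, at equal 75th percentiles and at a median ratio of 0, -0.59 at a mean of at least 10 FPKM, -0.56 without same-strand overlaps and -0.62 without TIMM23B, TOMM34 and TIMMDC1. The median of carriers (-0.32) was -0.34 with a pseudocount of 0.1, -0.58 with a filter of 5 FPKM, -0.20, -0.28 and -0.31 under the 3 scalings, and -0.72 at a mean of at least 10 FPKM. The difference of the medians (-0.28) was -0.29 with a pseudocount of 0.1, -0.028 with that filter, 0.13 at a mean of at least 10 FPKM, where fewer carriers enter (15 of 38), -0.24 without same-strand overlaps and -0.30 without the 3 named translocases. Of the 30 members past 1.5-fold, 18 remained so with equal sums and 22 at equal 75th percentiles, and 0 reversed under the alternatives run. A reversal of these members could not occur. Filters, removals and another pseudocount cannot turn the sign of a ratio, and the largest scaling multiplied oe by only 1.09. The 0 is therefore no check of their direction. SLC25A44, which was within 1.5-fold, was the only member whose log2 ratio changed sign. The cause of these moves was not tested.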

Other observations

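Inner membrane carriers outside the SLC25 family and the proteins that shape the cristae were also read. Of 13 counted genes of inner membrane transport outside the SLC25A symbols, 2 were at least 1.5-fold lower (15.4%) and 0 higher, with a median log2 ratio of -0.38. The share of lower genes was near the 15.2% of all genes counted, of which 15.3% were higher. MPC2, a subunit of the pyruvate carrier and the most abundant of that list, measured 87.9 FPKM in oe against 252 FPKM in nc (-1.51), while MPC1, the subunit it pairs with and named after its value was seen, reached 11.9 FPKM in oe and 14.2 FPKM in nc (-0.24). SFXN2, a sideroflexin of the inner membrane, was at 3.44 FPKM in oe against 9.15 FPKM in nc (-1.19). MPC2 overlaps DCAF6 on the opposite strand, which had 30.6 FPKM in oe and 44.8 FPKM in nc.

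Of 10 counted genes of the MICOS complex, which holds cristae junctions, and of the porins, which are the metabolite channels of the outer membrane, 4 were lower and 0 higher, with a median of -0.49, against 15.2% lower and 15.3% higher over all genes counted and 19.9% lower over those with a mean of at least 10 FPKM. APOO was at 8.69 FPKM in oe against 17.3 FPKM in nc (-0.92), MINOS1 at 4.16 FPKM in oe against 8.50 FPKM in nc (-0.88), and C19orf70 at 27.8 FPKM in oe and 49.0 FPKM in nc (-0.80). C19orf70 overlaps RPL36 on the opposite strand, which reached 174 FPKM in oe and 255 FPKM in nc. Among the porins, VDAC3 was lower, at 26.2 FPKM in oe against 44.7 FPKM in nc (-0.75), while VDAC1, the most abundant, was at 79.4 FPKM in oe against 100.2 FPKM in nc (-0.33).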
